A study of Homo sapiens with 17 samples.

Results

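The sites described here are the stretches of the human genome where a ChIP-seq peak of SOX2 was also found with a fusion of SOX2 to a piece of FOXA2, and where none of the FOXA proteins gave a peak. They were chosen by a rule on peak lists. A peak of the first SOX2 replicate on chromosomes 1 to 22 or X belongs to the set if it shares at least 1 bp with a peak of the first fusion replicate and no base with any peak of 6 combined FOXA lists. The rule found 7589 such peaks among 13788 SOX2 peaks on these chromosomes (55.0%, Wilson 95% interval 54.2 to 55.9). They are called kept FOXA-free sites below, and together they cover 2.90 Mb. Because measured peaks chose them, their number and their presence in both first-replicate lists are descriptions, not findings.

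All libraries come from U2OS, a human osteosarcoma cell line, in stable lines that carry a doxycycline-inducible (Tet-on) construct for a Flag-tagged factor. The SOX2FL group expressed full-length SOX2 (genotype label Tet-on SOX2). The SOX2FLFOXA2CTD group expressed SOX2 joined to the C-terminal domain, or CTD, of FOXA2 (Tet-on SOX2FOXA2CTD). The FOXA lists used for exclusion come from lines with full-length FOXA1, FOXA2 or FOXA3 (FOXA1FL, FOXA2FL, FOXA3FL) or the same proteins without their CTD (FOXA1dCTD, FOXA2dCTD, FOXA3dCTD). All 8 groups had 2 replicates and were treated with doxycycline at 500 ng/ml over 4 days, as the treatment label puts it. The extraction text gives the dose with another unit, and the difference was not resolved. The labels do not say whether a line is 1 clone. An input library exists, but how it entered peak calling is not given in the sources used here, so SOX2 and fusion peaks may share it as a control. Reads were not used here, the depth of each library is unknown, and every interval below covers counting error over peaks only. Since peaks are not replicates and each list stands for its group, no p-value is given.

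SOX2 is a transcription factor of the SOX family. Its HMG-box domain binds the minor groove of DNA at a short A/T-rich motif and bends the helix, and it can bind sites wrapped on nucleosomes. It is best known for maintaining pluripotent stem cells and neural progenitors. FOXA proteins are forkhead factors of endoderm, liver and gut with the same pioneer ability, and their CTD is a region outside the DNA-binding forkhead domain. In the fusion the DNA-binding domain is that of SOX2, so a site kept by the fusion and free of FOXA peaks is one where both SOX2 proteins, and none of the FOXA proteins, were called.

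The promoter windows below show what the DNA at such sites looks like where the sequence could be read. RefSeq promoter windows on GRCh38.p14 run from 250 bases before to 50 after a gene's start, and 97 of 34961 windows were overlapped by 82 kept FOXA-free sites. Capitals mark each match to the SOX motif AACAATG or AACAAAG on either strand. The first 4 carry the motif at non-coding and coding genes, RTN4 carries it in a G+C-rich window, and RHOB is the coding gene with the strongest peak among windows without it.
SOX2-OT (chr3:181610084-181610383, plus strand): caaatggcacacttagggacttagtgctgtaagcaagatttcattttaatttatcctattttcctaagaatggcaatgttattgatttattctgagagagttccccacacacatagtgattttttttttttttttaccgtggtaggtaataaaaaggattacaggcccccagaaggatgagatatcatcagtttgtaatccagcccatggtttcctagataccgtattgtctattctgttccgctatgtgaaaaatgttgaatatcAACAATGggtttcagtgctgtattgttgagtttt
SOX1-OT (chr13:111972060-111972359, plus strand): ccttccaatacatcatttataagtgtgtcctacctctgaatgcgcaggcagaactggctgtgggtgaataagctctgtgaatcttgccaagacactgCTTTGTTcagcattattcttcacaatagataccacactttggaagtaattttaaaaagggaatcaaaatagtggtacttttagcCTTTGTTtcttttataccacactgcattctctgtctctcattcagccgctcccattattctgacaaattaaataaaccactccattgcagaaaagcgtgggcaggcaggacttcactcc
GDF3 (chr12:7695726-7696025, minus strand): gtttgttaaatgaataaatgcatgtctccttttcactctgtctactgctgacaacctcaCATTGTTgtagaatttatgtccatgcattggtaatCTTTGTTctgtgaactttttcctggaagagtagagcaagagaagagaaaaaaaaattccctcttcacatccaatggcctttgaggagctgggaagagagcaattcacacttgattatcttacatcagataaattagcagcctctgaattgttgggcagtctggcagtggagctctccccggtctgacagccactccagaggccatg
PRKACB (chr1:84181387-84181686, plus strand): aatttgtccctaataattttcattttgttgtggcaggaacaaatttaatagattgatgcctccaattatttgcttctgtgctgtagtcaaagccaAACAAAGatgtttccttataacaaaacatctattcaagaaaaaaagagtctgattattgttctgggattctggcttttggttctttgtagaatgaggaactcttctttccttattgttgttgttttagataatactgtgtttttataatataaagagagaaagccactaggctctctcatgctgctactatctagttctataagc
RTN4 (chr2:55050402-55050701, minus strand): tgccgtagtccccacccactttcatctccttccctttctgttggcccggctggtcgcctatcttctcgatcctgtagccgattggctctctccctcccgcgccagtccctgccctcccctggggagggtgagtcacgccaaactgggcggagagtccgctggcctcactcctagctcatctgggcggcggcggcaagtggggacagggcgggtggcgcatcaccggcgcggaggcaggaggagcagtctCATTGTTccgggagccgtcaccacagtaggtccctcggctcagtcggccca
RHOB (chr2:20446824-20447123, plus strand): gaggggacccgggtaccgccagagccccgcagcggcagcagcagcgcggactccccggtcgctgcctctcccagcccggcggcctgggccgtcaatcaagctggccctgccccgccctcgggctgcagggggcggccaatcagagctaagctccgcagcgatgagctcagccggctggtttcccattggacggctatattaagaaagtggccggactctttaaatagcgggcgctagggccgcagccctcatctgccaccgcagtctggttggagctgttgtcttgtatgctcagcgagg

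SOX2-OT is the long non-coding RNA gene within which SOX2 itself lies. At this SOX2-OT start the fold enrichment of the peak over its local background, as the authors' peak caller wrote it, was 3.31 with SOX2 and 4.61 with the fusion. The motif, at position 267 of the window, lay 20 bp from the SOX2 summit and 16 bp from the fusion summit. Another SOX2-OT start, at chr3:181174894-181175193, was also under a site (fold 3.92 and 4.15) and its window held no match. SOX1-OT, the overlapping transcript of the neural factor SOX1, had folds of 4.36 with SOX2 and 6.26 with the fusion, and the match nearest the SOX2 summit was 152 bp from it but 8 bp from the fusion summit.

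GDF3, a TGF-beta family ligand of pluripotent cells, had folds of 4.12 and 4.61 for SOX2 and the fusion, and its SOX2 summit lay 25 bp from the nearer of 2 matches. This site was in the combined fusion list too. At PRKACB, which encodes a catalytic subunit of protein kinase A, the folds were 4.32 and 6.43 and the motif was 26 bp from the SOX2 summit. RTN4, the gene of the axon growth inhibitor Nogo, had folds of 3.19 and 3.78, with the motif 19 bp from the SOX2 summit. RHOB, a small GTPase, had the highest fold of these windows with SOX2, 6.87, against 4.02 with the fusion. Its SOX2 summit was 1039 bp from the start, outside the window printed.

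Windows on chromosome 8 were not used here. Across the 97 windows under a kept FOXA-free site, 23 held the SOX motif (23.7%, 16.4 to 33.1). The share over all promoter windows was 8.20%. The difference from windows without such a site was 15.6 percentage points (Newcombe 95% interval 8.19 to 24.9). Windows under a fusion peak with neither a SOX2 nor a FOXA peak held the motif in 98 of 1005 cases (9.75%, 8.07 to 11.7). That was 14.0 points fewer (6.34 to 23.5). SOX2 peaks neither kept nor shared with FOXA had it in 9 of 46 windows (19.6%), a difference of 4.15 points (-11.3 to 17.1). Peaks shared with FOXA alone had it in 6 of 39 (15.4%), a difference of 8.33 points (-7.80 to 20.7). Both of these intervals reached past 0. Windows under a SOX2 peak kept by the fusion with a FOXA peak held it in 36 of 130 (27.7%, 20.7 to 35.9), and the difference of -3.98 points had an interval on both sides of 0 (-15.0 to 7.69). With the 6-base core ACAATG or ACAAAG this comparison turned. The core was in 57 of 97 windows (58.8%, 48.8 to 68.0), in 56 of 130 at kept sites with FOXA (43.1%, 34.9 to 51.7) and in 24.4% of all windows, and the difference between these classes of kept sites was 15.7 points (2.54 to 28.1). The order of these classes therefore differed between the 7-base motif and its core. Merging overlapping windows gave core shares of 62.7% (51.9 to 72.3) without FOXA and 49.5% (39.9 to 59.2) with FOXA, and these intervals overlap. Among windows with G+C under 50% the core was in 84.4% (71.2 to 92.3) and 76.9% (57.9 to 89.0), with intervals that also overlap. For the 7-base motif, the match nearest the SOX2 summit was measured in each window, which favours the SOX2 summit where a window has several. Its centre lay within 100 bp of the SOX2 summit in 16 of the 23 windows and within 100 bp of the fusion summit in 15. Of the 97 windows, 1 was also overlapped by a FOXA peak that did not touch the site.

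Base composition moved with this result. The median G+C content was 51.0% in windows under a kept FOXA-free site, 58.7% over all windows, 60.3% at kept sites with FOXA and 66.7% under fusion peaks alone. Among windows with G+C under 50%, the SOX motif was in 17 of 45 at kept FOXA-free sites (37.8%, 25.1 to 52.4) and in 15.6% of all windows. Fusion peaks alone then reached 34.5% (41 of 119, 26.5 to 43.4). For the full motif, the gap to them seen over all windows was therefore not seen within this range. For the shorter SOX core it was still seen. Within this range the core was in 38 of 45 windows at kept FOXA-free sites (84.4%, 71.2 to 92.3). Under fusion peaks alone it was in 73 of 119 (61.3%, 52.4 to 69.6), and these intervals do not overlap. The part of base composition in these gaps was not otherwise tested.

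A forkhead motif (TGTTTAC or TGTTTGC, either strand), the kind of sequence FOXA proteins bind, was in 3 of the 97 windows (3.09%, 1.06 to 8.70), against 7.16% of all windows. At kept sites with FOXA it was in 12 of 130 (9.23%, 5.36 to 15.4), and the difference of -6.14 points had an interval reaching past 0 (-12.7 to 0.678). Under fusion peaks alone the forkhead motif was in 35 of 1005 windows (3.48%). At peaks neither kept nor shared with FOXA it was in 2 of 46 (4.35%). Peaks shared with FOXA alone had it in 2 of 39 (5.13%). The low share was thus not particular to kept FOXA-free sites. The rule removes sites with a FOXA peak, and its part in this share was not tested. The forkhead letters can overlap the SOX letters on opposite strands. The AP-1 motif TGACTCA, or TGAGTCA on the other strand, bound by FOS and JUN dimers, was in 14 of 97 windows (14.4%, 8.80 to 22.8), against 4.92% of all windows and 7 of 130 at kept sites with FOXA (5.38%, 2.63 to 10.7). The difference between those classes was 9.05 points (1.30 to 17.8). It was not seen among windows with G+C under 50%, with 9 of 45 (20.0%) and 5 of 26 (19.2%). Merging overlapping windows gave 11 of 83 (13.3%, 7.56 to 22.2) and 7 of 99 (7.07%, 3.47 to 13.9), with intervals that overlap. Peaks neither kept nor shared with FOXA had AP-1 in 10.9% of windows, a difference of 3.56 points (-9.85 to 13.9), and peaks shared with FOXA alone in 12.8%, a difference of 1.61 points (-13.4 to 12.6). A match is a run of letters, not a bound site.

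**Figure D1:**
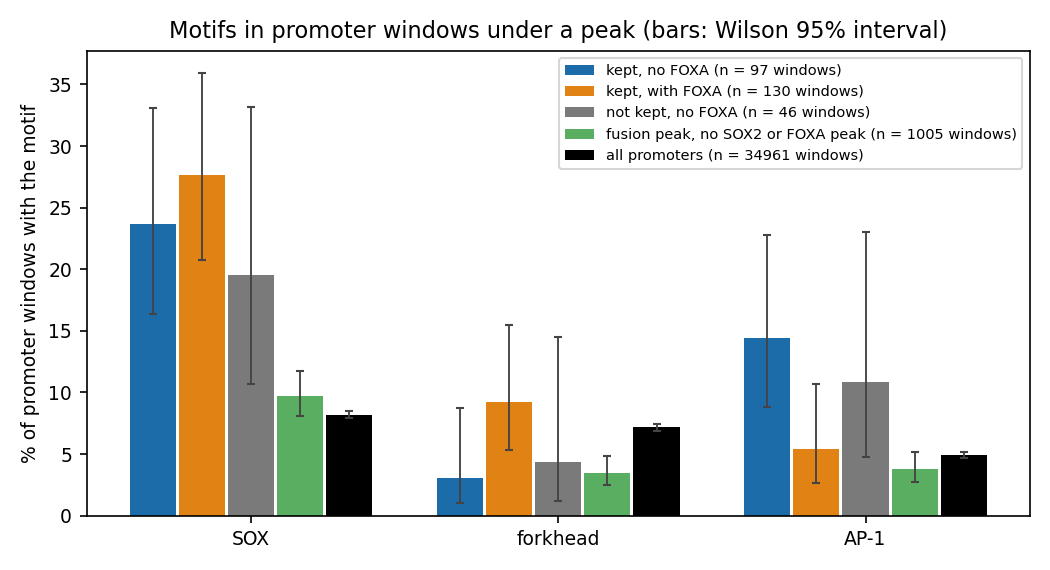
Share of promoter windows with a SOX, forkhead or AP-1 motif on the vertical axis (%), for windows under SOX2 peaks of 3 classes, under fusion peaks with no SOX2 or FOXA peak, and for all windows, with Wilson 95% intervals as lines. Kept FOXA-free sites stand at 23.7% for SOX, 3.09% for forkhead and 14.4% for AP-1, against 8.20%, 7.16% and 4.92% of all windows.

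Most kept FOXA-free sites were weak peaks in both lists. With SOX2 the fold enrichment ran from 1.31 to 21.5 with a median of 3.31 (quartiles 2.91 and 3.88), and the −log10 p from 1.73 to 128 with a median of 3.62. With the fusion the fold ran from 1.29 to 25.5 with a median of 3.92 (quartiles 3.23 and 4.83), and the −log10 p had a median of 4.64. The fusion fold was the higher in 5436 sites (71.6%) and the median ratio of fusion to SOX2 fold was 1.18. In 268 sites the fusion fold was over 2 times the SOX2 fold, and in 8 the SOX2 fold was over 2 times the fusion fold. These heights decide whether a peak is listed, and the fusion list is much longer (42289 peaks), so they describe the sites and compare no proteins.

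After the peak caller's own correction, 893 of the 7589 sites (11.8%) had q of at most 0.05 with SOX2, 3744 (49.3%) with the fusion and 747 (9.84%) with both. In 4183 sites (55.1%) the SOX2 q was listed at 1. Weak q values were not particular to these sites, since the median SOX2 −log10 q was 0 in every class of SOX2 peak. Its upper quartile was 0.395 at these sites and 0.757 at kept sites with FOXA. For peaks neither kept nor shared with FOXA it was 0, and for peaks shared with FOXA alone 0.121. The SOX2 folds took only 710 distinct values over all sites, and the −log10 p 411. Across sites the SOX2 and fusion folds had a Pearson r of 0.514 and a Spearman rho of 0.397 (n = 7589 sites of 1 library pair, which share local copy number and base composition). Kept sites with a FOXA peak had a SOX2 fold median of 3.31 and a fusion fold median of 3.69, and SOX2 peaks that neither the fusion nor FOXA shared had a SOX2 fold median of 2.89.

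**Figure D2:**
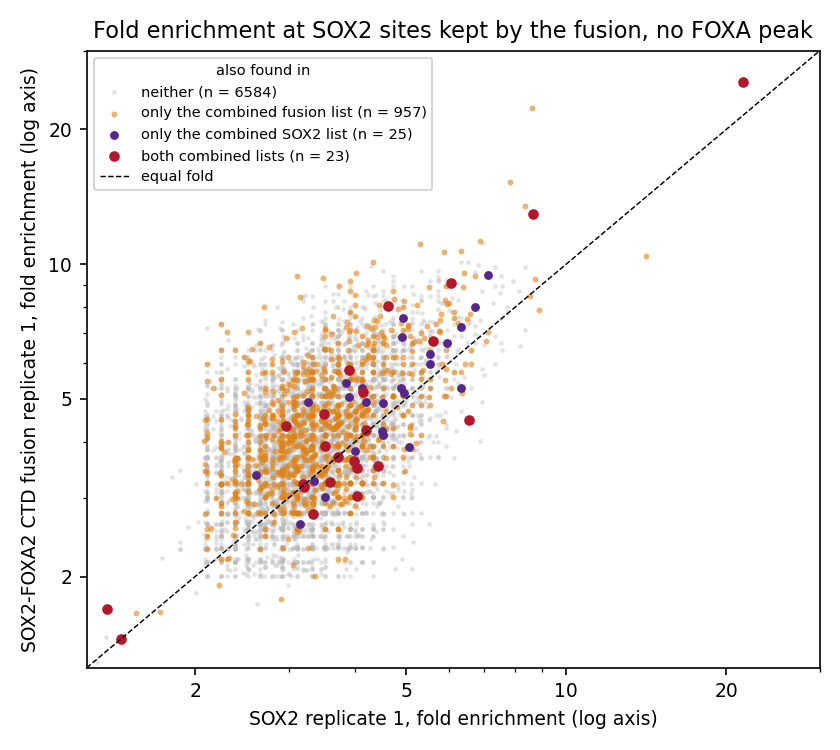
Fold enrichment of each of the 7589 kept FOXA-free sites with SOX2 (horizontal, log axis) and with the fusion (vertical, log axis), coloured by presence in the 2-replicate lists. The cloud lies around fold 3.31 and 3.92, most points are above the dashed line of equal fold, and the TRAPPC9 site stands alone at 21.5 and 25.5.

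The rule asks for overlapping peaks, so summits near each other follow largely from it, and the distances are a description. The summits were a median of 73 bp apart (quartiles 32 and 137 bp, at most 2038 bp), and 4720 sites (62.2%) had them within 100 bp. A median of 280 bp was shared, of a SOX2 peak width of 331 bp and a fusion peak width of 446 bp. A single fusion peak lay under 7538 sites, 2 under 50 sites and 3 under 1 site. The nearest FOXA peak of any of the 6 lists was a median of 7183 bp away (quartiles 2791 and 17687 bp, at most 430639 bp). It was within 1 kb in 799 sites (10.5%) and within 10 kb in 4490 (59.2%), so the sites are free of FOXA peaks but most have one nearby. SOX2 peaks that were neither kept nor shared with FOXA had a median distance of 6165 bp.

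**Figure D3:**
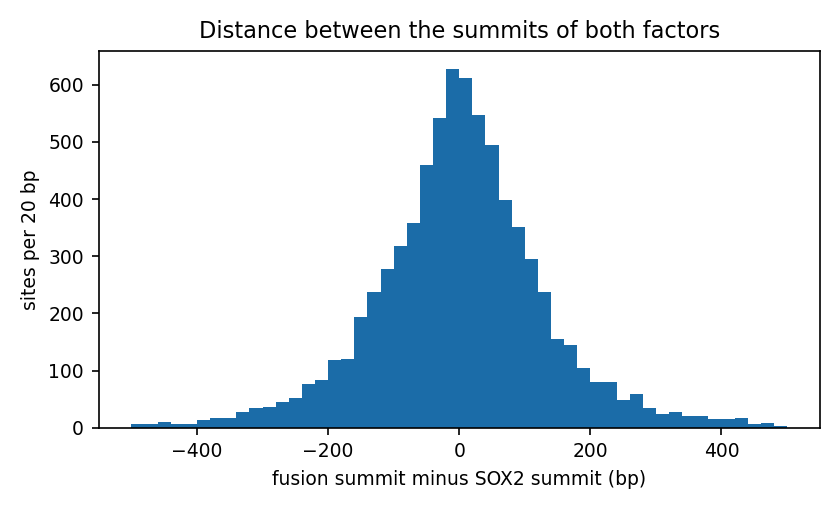
Number of kept FOXA-free sites (vertical, per 20 bp) by the fusion summit position minus the SOX2 summit position (horizontal, bp), for the 7499 sites within 500 bp. The counts peak near 0 and fall on both sides, with 62.2% of all sites within 100 bp.

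The edges of the rule were examined by position. The smallest overlaps with a fusion peak were 1 bp, at chr3:125940606-125940803 (SOX2 fold 2.37, fusion fold 3.78) and chr4:38270614-38270854 (3.28 and 3.34). Just outside, peaks that touch a fusion peak without sharing a base lay at chr1:120259740-120259978 (SOX2 fold 2.51) and chr18:5584705-5585095 in EPB41L3 (3.31). The included sites nearest to a FOXA peak were chr18:70493244-70493470, which adjoins one with 0 bp between (SOX2 fold 3.52, fusion fold 4.49), and chr1:65380164-65380455 in DNAJC6, 1 bp away (3.72 and 4.38). Just excluded were chr5:36932469-36932759 in NIPBL, sharing 2 bp with a FOXA peak (2.79 and 2.65), and chr15:59104217-59104554, sharing 6 bp (2.28 and 2.37).

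The lists made from both replicates tell how many sites were also listed when the replicate that the rule did not use was added. They also contain the first replicate, so they are only partly independent of the rule. These lists carry an irreproducible discovery rate, or IDR, which is low where a peak ranks alike in both replicates. Of the 7589 sites, 48 were in the combined SOX2 list (0.632%, 0.477 to 0.838), where 1.94% of all SOX2 first-replicate peaks were. For nearly all of the 7589 sites this list thus gives the name SOX2 site no backing beyond 1 library. It stops at an IDR of 0.1, and no list of the second replicate alone was used. Absence from the combined SOX2 list therefore does not show that the second replicate lacked a peak. Kept sites with FOXA were in it in 156 of 2721 cases (5.73%, 4.92 to 6.67), a difference of -5.10 points (-6.05 to -4.26). Peaks that were neither kept nor shared with FOXA were in it in 10 of 2378 (0.421%, 0.229 to 0.772), and the difference of 0.212 points had an interval on both sides of 0 (-0.173 to 0.493).

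The combined fusion list held 980 sites (12.9%, 12.2 to 13.7), against 12.5% of all SOX2 first-replicate peaks. That list reaches an IDR of 0.920, though, while the combined SOX2 list stops at 0.1. Of the 980 sites, 40 were in the fusion list with an IDR of at most 0.1 (4.08%, 3.01 to 5.51). At that limit the share of all kept FOXA-free sites was 0.527% (0.387 to 0.717), against 1.20% of all SOX2 first-replicate peaks. Kept sites with FOXA stood at 3.56% (2.93 to 4.33). Peaks neither kept nor shared with FOXA gave 0 of 2378, with a Wilson upper limit of 0.161%, and a low share there follows in part from the rule. In both combined lists there were 23 sites, in the SOX2 list only 25, in the fusion list only 957, and in neither 6584 (86.8%). These joint counts were not taken over all SOX2 first-replicate peaks, so the 86.8% is not read as particular to these sites.

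Part of the gap between kept sites without and with FOXA lay in gene-free DNA. Each chromosome's longest stretch without any annotated gene, mostly around centromeres and on the short arms of acrocentric chromosomes, was set apart, 164 Mb in all. On chromosomes 14, 16, 21 and 22 these stretches held 0% of the kept FOXA-free sites. Outside these stretches the difference in the combined SOX2 list was -1.41 points (0.586% against 2.00%, interval -2.08 to -0.880). In the combined fusion list it was -5.43 points (12.9% against 18.3%, -7.21 to -3.73). With the IDR limit of 0.1 it was -0.275 points (0.491% against 0.765%), with an interval on both sides of 0 (-0.736 to 0.0631). The size of this difference therefore moved with both the stretches and the IDR limit.

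Stronger peaks were more often in the combined lists, again outside the gene-free stretches. The strength is that of the first replicate, which the combined lists also contain, so this follows in part from their construction. Sites with a SOX2 −log10 p under 3 were in the combined SOX2 list in 3 of 2294 cases (0.131%), and those at 8 or more in 10 of 172 (5.81%, 3.19 to 10.4). By fusion −log10 p, the share in the combined fusion list was 6.45% under 3, 13.2% from 3 to 4, 10.5% from 4 to 5, 14.8% from 5 to 8 and 21.3% at 8 or more. Kept sites with FOXA gave 10.1%, 18.8%, 20.0%, 21.6% and 21.8% in these bands. The classes were apart from 3 to 8, where the intervals did not overlap, and at 8 or more they stood at 18.7 to 24.2 and 17.3 to 27.2.

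**Figure D4:**
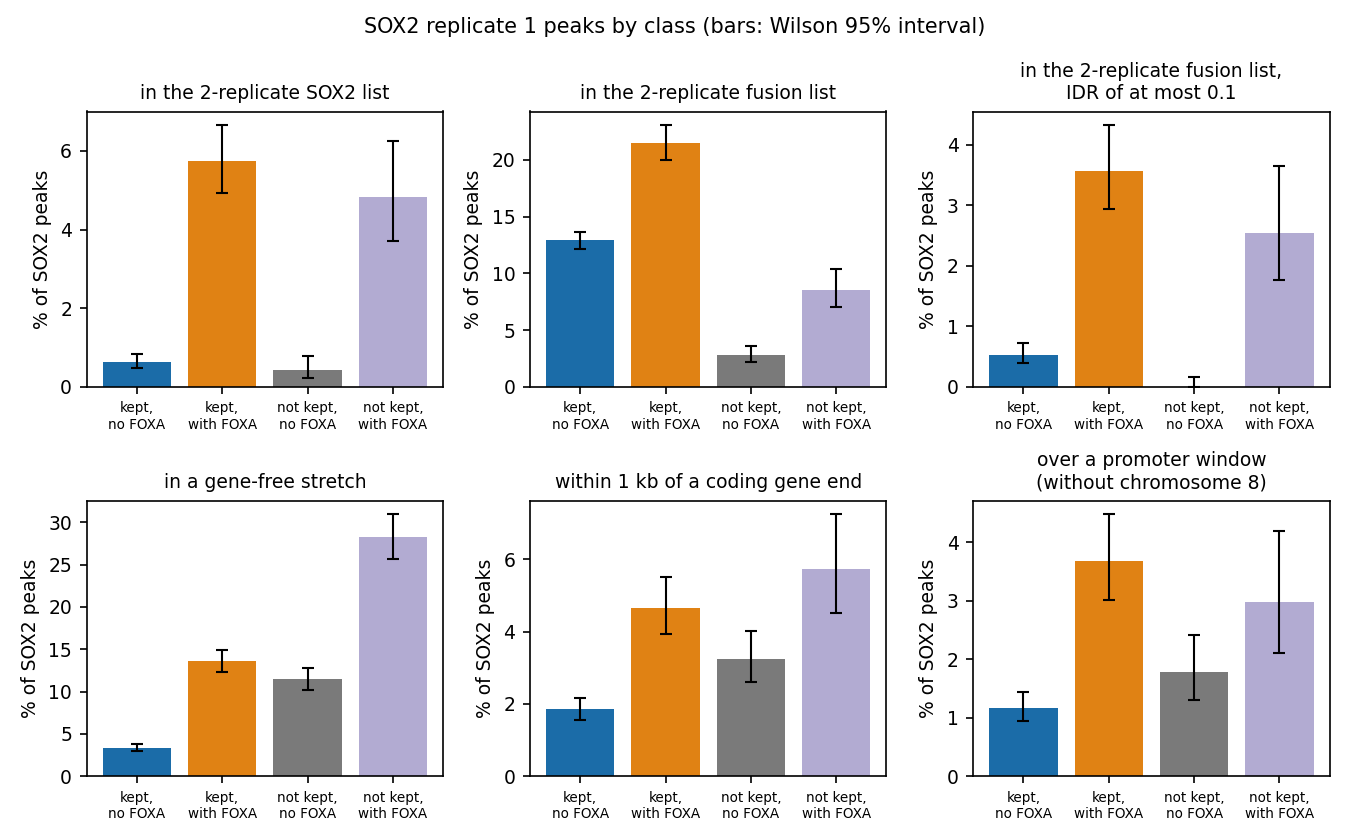
Share of SOX2 first-replicate peaks (vertical, %) in 4 classes by fusion and FOXA overlap, for 6 measures, with Wilson 95% intervals as lines. Kept FOXA-free sites have the lowest share in gene-free stretches (3.32%) and near coding gene ends (1.84%), and 0.632% of them are in the 2-replicate SOX2 list against 5.73% of kept sites with FOXA.

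Kept FOXA-free sites were seldom in the gene-free stretches and seldom at promoters. In the stretches lay 252 sites (3.32%, 2.94 to 3.75), against 8.73% of all SOX2 first-replicate peaks. Kept sites with FOXA stood at 13.6%, peaks neither kept nor shared with FOXA at 11.4%, and peaks shared with FOXA alone at 28.3%. No more than 1 kb from the start or end of a coding gene were 140 sites (1.84%, 1.57 to 2.17), against 2.95% of all. The differences were -2.82 points from kept sites with FOXA (-3.73 to -2.02) and -1.39 points from peaks neither kept nor shared (-2.23 to -0.675). Over promoter windows lay 1.16% of 7078 sites (0.934 to 1.44), against 1.91% of all peaks and 3.68% of kept sites with FOXA. The kept FOXA-free sites had the lowest share of the 4 classes by either measure, while the order of the other classes differed. Gene ends and promoter windows partly count the same places, so these are not separate observations.

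Inside protein-coding genes lay 3071 sites (40.5%, 39.4 to 41.6), against 39.7% of all peaks. The difference from kept sites with FOXA was -0.144 points (-2.30 to 2.00) over all peaks, and -5.12 points (41.9% against 47.0%, interval -7.44 to -2.82) outside the gene-free stretches, where all peaks stood at 43.4%. In any annotated gene, non-coding ones included, were 4088 sites (53.9%), against 52.3% of all. Another SOX2 first-replicate peak lay within 10 kb of 1742 sites (22.95%, 22.02 to 23.91), against 25.3% of all peaks and 26.4% at kept sites with FOXA. Within 50 kb, 55.1% of the sites had such a neighbour.

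Their density differed between chromosomes. Chromosome 10 had 4.10 sites per Mb (549 sites), followed by chromosome 8 with 3.52, chromosome 22 with 3.44 and chromosome 20 with 3.39. Chromosome X had 0.340 per Mb (53 sites), chromosome 19 had 0.358 (21 sites) and chromosome 13 had 0.892. These chromosomes, in this order, were also lowest for all first-replicate fusion peaks, with 4.32, 3.99 and 6.26 per Mb, against 17.9 on chromosome 10. Peaks of the 6 FOXA lists stood at 14.8, 24.7 and 39.1 per Mb there, against 81.2 on chromosome 10. The low density was thus not particular to these sites. U2OS is an aneuploid line, and copy number was not measured here, so its part was not tested. As a share of each chromosome's SOX2 peaks the picture was another. Chromosome X then had the highest value, 75.7% (64.5 to 84.2), and chromosome 19 the lowest, 19.6% (13.2 to 28.1). Chromosome 22 with 40.5% and chromosome 18 with 41.7% came next to the lowest. Kept peaks with FOXA, which the rule leaves out, were 6 of 70 SOX2 peaks on chromosome X and 41 of 107 on chromosome 19.

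**Figure D5:**
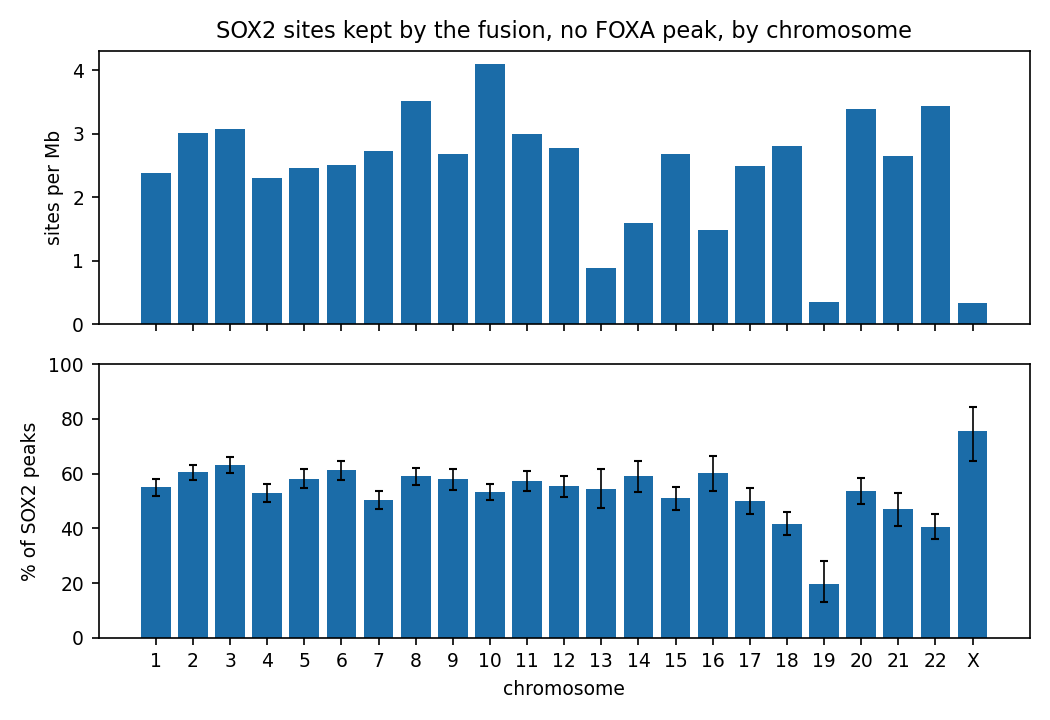
Kept FOXA-free sites per Mb (upper panel) and as a share of the SOX2 first-replicate peaks (lower panel, %, lines are Wilson 95% intervals) on each chromosome. Chromosomes X and 19 are both low per Mb (0.340 and 0.358), but X is the highest and 19 the lowest as a share (75.7% and 19.6%).

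In windows of 5 Mb the sites were spread widely, with at least 1 site in 550 windows and a median of 11. The fullest windows were at or next to centromeres. The window of chromosome 3 from 90 Mb held 82 sites of 137 SOX2 peaks, that of chromosome 12 from 35 Mb held 79 of 172, and that of chromosome 20 from 25 Mb held 68 of 145. Only 6, 24 and 18 of these sites were within the gene-free stretches themselves, and 0, 4 and 0 were in coding genes. Sites outside the stretches can therefore still lie in gene-poor DNA around centromeres. The next window, chromosome 10 from 60 Mb, held 55 sites, 19 of them in coding genes.

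The strongest sites were named by the lower of their −log10 p values with SOX2 and the fusion, outside the gene-free stretches. The first stood far above the rest. At chr8:140156589-140157571, within TRAPPC9, a subunit of a complex that works in vesicle traffic, the fold was 21.5 with SOX2 and 25.5 with the fusion, and the −log10 p 128 and 165. The summits were 1 bp apart, and the site was in both combined lists at the lowest IDR the score can hold, 0.00391. The −log10 p of the replicates, which the lists do not number, was 130 and 53.5 for SOX2 and 166 and 68.2 for the fusion. FOXA peaks lay 1999 bp away, and 4 of the 6 FOXA lists had one within 5 kb. A further site within TRAPPC9, chr8:139996865-139998713, ranked after the next one, with folds of 14.1 and 10.4. It was in the combined fusion list, where the replicates gave 39.4 and 2.57.

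The site at chr22:11370320-11371568 ranked second, with folds of 8.73 and 9.28 and −log10 p of 38.8 and 41.9. It lay 4156860 bp from the nearest protein-coding gene. In the combined fusion list the replicates gave it 62.6 and 2.46. The remaining 9 had SOX2 folds from 6.06 to 8.65 and fusion folds from 5.43 to 22.3. Of these, 7 lay over 500 kb from any protein-coding gene and in neither combined list, on chromosomes 2, 14, 21 and 22, and are given by position alone. The other two were chr9:66937641-66938664, 5996 bp from the zinc-finger gene ZNF658, with folds of 8.65 and 12.9, and chr17:70792884-70793607.

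The chromosome 17 site differed from the others of this rank in its fusion signal. It lay 613243 bp from KCNJ2, which encodes an inward rectifier potassium channel and was the nearest coding gene. Its fold was 8.63 with SOX2 and 22.3 with the fusion, and its −log10 p 15.8 and 59.1. In the combined fusion list it had the IDR of 0.00391, with 60.5 and 6.93 in the replicates, and it was absent from the combined SOX2 list. FOXA peaks began 1240 bp away, and 3 of the 6 FOXA lists had one within 5 kb.

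Among the 23 sites in both combined lists, 11 were in a coding gene and 4 in gene-free stretches. At a fusion IDR of at most 0.1 there were 6 left, 3 of them outside the stretches. Those 3 were the TRAPPC9 site, chr22:26660797-26661544 near the lens crystallin gene CRYBA4, and a site in SOX2 itself. The CRYBA4 site lay 30470 bp from that gene and 1048 bp from a FOXA peak, with folds of 6.07 and 9.07. It had peaks of 5 of the 6 FOXA lists within 5 kb. The replicates gave it −log10 p of 10.1 and 3.94 with SOX2 and 18.99 and 8.83 with the fusion. In the stretches, adjacent sites at chr13:17417430-17417937 and chr13:17418150-17418510 shared 1 combined peak and had SOX2 folds of 5.62 and 4.03. The sixth, chr10:42083617-42084085, had folds of 1.37 and 1.69.

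The other sites of the 12 highest ranked in both combined lists had a fusion IDR above 0.1. Near the primate ankyrin-repeat genes POTEG and POTEH the SOX2 folds were 4.13 and 4.03 and the fusion folds 5.18 and 3.49. The site nearest to BMS1, a GTPase of ribosome assembly, had folds of 4.63 and 8.07 but lay 19 bp from a FOXA peak. Sites within TEX2 (6.55 and 4.48), KIAA1671 (3.90 and 5.80) and SNX8, a sorting nexin (3.98 and 3.63), and 41 bp from EXD3 (4.20 and 4.25), were each below a fold of 7 with both proteins.

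The site in SOX2 is at chr3:181712372-181713231, within the single gene body that the SOX2 construct also encodes. Its fold was 3.20 with SOX2 and 3.23 with the fusion, and its −log10 p 3.62 with each in the first-replicate lists. In the combined lists the replicates gave 3.62 and 11.3 with SOX2 and 3.62 and 13.9 with the fusion. DNA of the integrated construct and of the gene itself cannot be told apart in a peak list. A pair of sites lay outside the gene. At chr3:181698990-181699422, 12629 bp from it, the folds were 3.20 and 8.26, and at chr3:181690803-181691247, 20970 bp from it, 2.19 and 5.29. No kept FOXA-free site overlapped FOXA1, FOXA2 or FOXA3.

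Genes with a site in them or within 50 kb numbered 4208 of 19974 protein-coding genes (21.1%). Lists of genes are read against that share. Of 20 genes of SOX2 partners and pluripotency, 19 were in the gene table and 3 of these had a site (15.8%), SOX2 itself, PRDM14 and NODAL. PRDM14, a repressor that keeps the pluripotent state, had a site 3717 bp away with folds of 4.03 and 4.31. Of 29 neural genes that SOX2 is known to regulate, 3 had a site (10.3%, 3.58 to 26.4), HESX1, NEUROG2 and GLI3. NEUROG2, a proneural factor, had folds of 2.91 with SOX2 and 4.61 with the fusion. Both shares were below the 21.1%, which lay within their intervals.

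The SOX family had 6 of 18 genes with a site (33.3%, 16.3 to 56.3), SOX5, SOX6, SOX10, SOX13, SOX17 and SOX21. SOX5, a SOX factor of cartilage and neurons, had 8 sites within it, 3 of them in the combined fusion list. The strongest, chr12:23895962-23896437, had folds of 6.34 with SOX2 and 10.1 with the fusion. SOX13 had 1 site with folds of 3.74 and 6.12. SOX21, which acts with SOX2 in neural progenitors, had a site 2917 bp away with folds of 3.31 and 3.24.

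The WNT pathway had 10 of 28 genes with a site (35.7%, 20.7 to 54.2). They include the co-receptors LRP5 and LRP6, the receptor LGR4, the ligand antagonist DKK1, the E3 ligases RNF43 and ZNRF3, and CTNNB1, APC, AXIN1 and GSK3B of the beta-catenin destruction step. APC, the scaffold of that complex, held the strongest, chr5:112826223-112826536, with folds of 7.00 and 6.60. CTNNB1, beta-catenin itself, held 1 site with folds of 4.12 and 4.15. LRP6 held 3 sites, the best with 2.82 and 4.31.

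Genes of the bone and mesenchymal lineage, to which U2OS belongs, had 7 of 20 with a site (35.0%, 18.1 to 56.7), among them ALPL, IBSP, SPP1 and COL1A2. IBSP, a bone matrix sialoprotein, had a site 32075 bp away with folds of 5.18 and 5.81, and COL1A2, a collagen I chain, held 1 with 3.20 and 4.38. AP-1 and YAP-TEAD genes had 4 of 26 (15.4%), FOSL2, MAFF, YAP1 and AMOTL1, with SOX2 folds from 2.24 to 4.55. Endoderm and FOXA target genes had 5 of 19 (26.3%, 11.8 to 48.8), ALB, GATA4, GATA6, ONECUT1 and HNF4A. Of these the site near GATA6 had folds of 3.33 and 3.23 and that near HNF4A 3.07 and 4.12. The intervals of all these lists contained 21.1%, so no list was told apart from coding genes in general. A large gene has more room for a site, and the counts were not scaled for length.

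In all, 1887 coding genes held a site, 1267 of them 1 site and 74 of them 5 or more. The genes with the most sites were chosen after their counts were seen. CTNNA3, an alpha-catenin gene of 1.85 Mb, held 25 (13.5 per Mb), 5 of them in the combined fusion list, beside 3 kept peaks with FOXA. DLG2, a synaptic scaffold gene of 2.17 Mb, held 19, beside 4 kept peaks with FOXA. DLGAP1 held 15, with 11 kept peaks with FOXA and 16 that were neither kept nor shared. SDK1, LINGO2 and PRKG1 held 14 each, with 2, 9 and 8 kept peaks with FOXA and 8, 8 and 6 that were neither kept nor shared. TTC28 held 12 in 0.702 Mb (17.1 per Mb), with 11 and 18 of those other classes.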

How the data were processed

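ChIP-seq peak lists of U2OS cells were used as the authors deposited them. Per the submitters' processing notes the genome build was hg38 and the tools named were FastQC 0.10.1, Trim Galore, Bowtie2 2.4.4, SAMtools 0.1.18, MACS2 and deepTools 2.4.1, with no role or order given. The deposited first-replicate lists of SOX2FL and SOX2FLFOXA2CTD hold the fold of each peak over its local background, a ratio that the authors' peak caller wrote, with the −log10 p the −log10 q and the summit. The 8 deposited combined lists hold an IDR score, 125 times log2 of 1 over the IDR, and the −log10 p of each replicate without its number. The peak caller's settings and control are not given in the sources used here. Of 14 lists, 10 were used, and 4 were copies of others. Read numbers are unknown, so precision is that of counting peaks.

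Peaks were overlapped by at least 1 bp with Python 3.11.15, numpy 2.4.6 and pandas 2.3.3. Shares carry Wilson and differences Newcombe 95% intervals. The scripts were tested on simulated data. Genes and promoter windows came from RefSeq tables for GRCh38.p14, which gave no strand for genes, so either end counted as a gene end. The planned search for SOX motifs around every summit was not run, since no genome sequence was used here, and motifs were read in promoter windows only. The windows on chromosome 8 were not used.

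The sites, the gene lists and the comparisons were chosen with earlier results of these data known. Named sites were the 12 with the highest lower of both −log10 p outside gene-free stretches and at least 100 kb from SOX2 and the FOXA genes, the 12 highest in both combined lists, the site in SOX2, list genes with a site, and those at the edges of the rule. Alternatives were the overlap rule, peak thresholds, the FOXA distance and IDR, gene-end, neighbour and gene distances, gene classes, the gene-free stretches and the motif. A q limit, the IDR limit of the fusion list, merged windows and low G+C windows were added after seeing the data.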

Additional observations from a re-analysis of the deposited data

Results flagged for a closer look

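The rule covers chromosomes 1 to 22 and X. Outside them, 103 of 189 SOX2 first-replicate peaks met the same conditions on fusion and FOXA overlap (54.5%, Wilson 95% interval 47.4 to 61.4). This was close to the 55.0% on the chromosomes. They lay on 52 unplaced or alternate sequences and 0 on chromosome Y. Their SOX2 fold had a median of 3.11 and reached 6.29. What sets them was not tested.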

How the results depend on the processing

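Of 49 values under alternative settings, over 9 results, 22 stayed within the spread of the main value (for counts, within 1.5 times) and 27 did not. Comparisons that turned included the motif share against kept sites with FOXA (-3.98 points, 15.7 with the 6-base core). They also included the combined fusion share against all peaks (12.9% against 12.5%, 0.527% against 1.20% at an IDR of at most 0.1). The share in coding genes against all peaks turned as well (40.5% against 39.7%, 41.9% against 43.4% outside gene-free stretches). The number of sites was 4729 with summits within 100 bp and 864 with −log10 p of at least 5 in both lists. It was 747 with q of at most 0.05 in both and 168 from the combined lists. In the combined lists kept sites with FOXA were the larger class, with 879 against 168. In the main setting they were the smaller, with 2721 against 7589. With these −log10 p and q limits, the share in the combined SOX2 list was 2.89% and 3.08%, in the combined fusion list 20.7% and 19.7%, near gene ends 1.04% and 1.20%, and with a neighbour 9.95% and 8.84%. The share in gene-free stretches was 2.89% under the −log10 p limit. Fusion peaks with IDR of at most 0.1 gave 0.527% in place of 12.9%. With 50% reciprocal overlap, summits within 100 bp, and outside gene-free stretches, the share in coding genes was 41.6%, 42.4% and 41.9%, and that with a neighbour 21.3%, 20.4% and 21.2%. Wider definitions gave 3.98% within 2.5 kb of a gene end, 5.17% near the ends of all annotated genes, 53.9% in any gene and 55.1% with a neighbour within 50 kb. List genes with a site within 10 kb numbered 20, not 38. The SOX motif share was 58.8% for its 6-base core and 37.8% in windows with G+C under 50%. Fewer peaks or wider windows are the construction of these settings, and other causes were not tested. No paired analysis was possible because each protein had 1 first-replicate list and 1 combined list, and no result came from a test across replicates. For the same reason no replicate could be left out. The motif search around summits, with its other settings, was not run. Depth is unknown, and weak peaks decide most counts.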
